A study of Mus musculus with 7 samples.

Results

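The small leucine-rich proteoglycans (SLRPs) are secreted matrix proteins built from leucine-rich repeats, many of which carry chondroitin, dermatan or keratan sulfate chains. Here the family is represented by 10 genes of the 23235 gene symbols in the deposited tables: the class I genes Dcn, Bgn and Aspn, the class II genes Fmod, Lum, Prelp, Kera and Omd, and the class III genes Ogn and Epyc. Each gene was taken by its symbol, and the family was selected on a measured value, the difference of Fmod between the genotypes. The genotype differences of the members are therefore given as a description, with no test.

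RNA was sequenced from 7 cultured fetal kidneys of C57BL/6 mice, and every one carried activated beta-catenin, which relays Wnt signals to the nucleus. The groups were E2-2 deleted (3 libraries) and E2-2 wildtype (4 libraries). The mouse gene Tcf4 encodes E2-2, an E protein with a basic helix-loop-helix domain. The pregnant mice were given 2 mg of tamoxifen for every 40 g they weighed, at 10.5 days post coitum, and the kidneys were taken at the same age and kept in culture for 3 to 4 days. All cultures had 5 µg/mL of transferrin, 5 µg/mL of insulin and 5 ng/mL of selenium. The labels give neither the Cre driver, nor the deleted exons, nor the day of culture of each library, nor whether the libraries came from separate animals, so p-values reflect the spread of these 7 libraries alone, part of which may be technical. No group with inactive beta-catenin was analysed here.

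Levels are in FPKM, fragment numbers divided by transcript length and by the fragments mapped in the library, so that levels can be compared between genes. Group values are means ± SD (n = 3 deleted, n = 4 wildtype), and each difference is that of E2-2 deleted minus E2-2 wildtype libraries on the log2(FPKM + 1) scale, with the standard error (SE) from the spread within the groups. The inferred depth of the libraries was 14.6 to 26.6 mega-fragments. Tcf4 was read at 33.5, 41.7 and 42 FPKM in E2-2 deleted libraries, against 48.8, 58.1, 28.7 and 39.2 FPKM in E2-2 wildtype libraries. The groups overlapped, and a value for the whole gene cannot show the loss of single exons, so it does not check the genotype labels. The kidney progenitor gene Six2 was at 62.8, 2.69 and 33.5 FPKM in the deleted libraries, against 53.4, 29, 54.6 and 74.8 FPKM in the wildtype libraries. E2-2 deleted replicate 2 stood apart in this and in its whole profile: its correlation across genes with the other libraries was 0.96 to 0.979, against 0.979 to 0.993 among the others. Results that rest on it are given with and without it. The deposited names of E2-2 deleted replicates 1 and 2 and wildtype replicates 1 and 2 begin with BI, and those of deleted replicate 3 and wildtype replicates 3 and 4 with BM. What the prefix stands for is not stated, and differences are also given within each prefix.

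SLRPs bind the surface of collagen fibrils and set their diameter and spacing. Several of them also bind growth factors of the TGF-beta family, and their core proteins are cleaved by matrix proteases. In kidney, decorin and biglycan are known as products of interstitial and mesenchymal cells and are studied for their part in fibrosis.

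E proteins bind the E-box, and the TCF/LEF partners of beta-catenin bind sites that share a core close to CTTTGA. The promoters below are shown because Fmod and Prelp were the members that varied most alike, while Bgn and Ogn were abundant members with little difference between the genotypes. Each is the 250 bases before the RefSeq transcription start, 5′ to 3′ on the gene's strand, from the RefSeq table of build GRCm38.p6. Capitals mark every match to CANNTG, the E-box, and to CTTTGA on either strand.
Fmod promoter: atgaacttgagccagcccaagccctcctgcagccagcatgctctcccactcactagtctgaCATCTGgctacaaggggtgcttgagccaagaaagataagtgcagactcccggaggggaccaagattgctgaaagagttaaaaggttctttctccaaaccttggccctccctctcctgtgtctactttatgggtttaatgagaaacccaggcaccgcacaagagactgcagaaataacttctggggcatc
Prelp promoter: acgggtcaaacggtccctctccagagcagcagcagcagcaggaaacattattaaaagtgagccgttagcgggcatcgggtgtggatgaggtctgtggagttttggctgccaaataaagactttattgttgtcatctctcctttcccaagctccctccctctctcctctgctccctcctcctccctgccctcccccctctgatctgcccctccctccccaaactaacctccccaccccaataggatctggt
Bgn promoter: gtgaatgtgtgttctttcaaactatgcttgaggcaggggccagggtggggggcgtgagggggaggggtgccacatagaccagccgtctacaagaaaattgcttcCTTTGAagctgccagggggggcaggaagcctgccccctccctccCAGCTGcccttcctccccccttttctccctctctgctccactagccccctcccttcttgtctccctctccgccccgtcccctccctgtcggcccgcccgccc
Ogn promoter: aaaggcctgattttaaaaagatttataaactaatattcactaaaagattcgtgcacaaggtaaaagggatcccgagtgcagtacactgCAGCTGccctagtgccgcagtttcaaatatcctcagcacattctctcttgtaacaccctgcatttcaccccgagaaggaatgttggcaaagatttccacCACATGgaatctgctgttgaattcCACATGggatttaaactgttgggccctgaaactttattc
The Fmod window lies at chr1:134037004-134037253 on the plus strand and that of Prelp at chr1:133921402-133921651 on the minus strand. The Bgn window lies at chrX:73483351-73483600 and that of Ogn at chr13:49607765-49608014, both on the plus strand. Fmod held a single E-box match, CATCTG, 189 bases before the start, and no CTTTGA. Prelp held neither motif. Bgn held CAGCTG at 102 bases and CTTTGA at 146 bases before the start, and Ogn held 3 E-box matches at 162, 63 and 39 bases. Of the 8 members with a promoter in the table, 5 held CANNTG in at least 1 window and 3 held CTTTGA on either strand. Windows of the same length held CANNTG in 66.2% and CTTTGA in 13.8% of all 32851 promoters of the table. A match to 6 letters is a description of the sequence, and binding was not measured.

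Fibromodulin transcripts stood out in the family. Fmod, whose protein binds fibrillar collagen and guides its cross-linking, was at 18.6, 76.3 and 35.6 FPKM in the E2-2 deleted libraries, against 8.34, 4.29, 7.66 and 2.75 FPKM in the E2-2 wildtype libraries. The lowest deleted library was above the highest wildtype library. The mean was 43.5 ± 29.7 FPKM in deleted and 5.76 ± 2.68 FPKM in wildtype libraries, a ratio of 7.55, and the difference was 2.59 (SE 0.60). Within the libraries named BI the difference was 2.47, and within those named BM, which hold a single deleted library, it was 2.68. Deleted replicate 2 had the highest level. Without it the deleted mean was 27.1 FPKM, the ratio to wildtype 4.71 and the difference 2.08, and the groups still did not overlap. The inferred number of fragments of Fmod was 1068, 3626 and 2323 in deleted, against 411, 168, 534 and 166 in wildtype libraries. Among the 13464 genes tested, 12 had a larger positive difference than Fmod. The family was selected on this difference, so its rank is a description only. In whole kidneys, more cells that express a gene and more RNA of it per cell cannot be told apart, here or for any member.

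Lumican and Prelp, the other class II members read above 1 FPKM, both overlapped between genotypes. Lum, which limits collagen fibril growth in cornea and skin, was at 63, 92.1 and 133 FPKM in deleted libraries, against 88.8, 42.3, 74.1 and 66.1 FPKM in wildtype libraries. Its mean was 95.9 ± 35 FPKM in deleted and 67.8 ± 19.4 FPKM in wildtype libraries, with a difference of 0.48 (SE 0.37). The difference was 0.75 without deleted replicate 1, 0.21 without deleted replicate 3 and 0.27 without wildtype replicate 2, so its size rested on single libraries. Deleted replicate 1 lay below 3 of the 4 wildtype libraries. Prelp, whose protein links basement membrane heparan sulfate to collagen, was at 0.764, 4.14 and 1.57 FPKM in deleted libraries, against 0.891, 0.5, 0.706 and 0.427 FPKM in wildtype libraries. Its difference was 0.82 (SE 0.39), and 0.39 without deleted replicate 2, which alone held 251 inferred fragments of Prelp, against 25 to 131 in the other libraries. Prelp passed the level filter through that library. With the smaller pseudocount of 0.1 FPKM the difference of Prelp was 1.37, since its levels lie near the pseudocount of 1 FPKM.

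Kera and Omd, the class II members known from cornea and from bone, were read from few fragments. Kera was at 0.421, 0.318 and 0.957 FPKM in deleted libraries, against 0.399, 0.231, 0.415 and 0.504 FPKM in wildtype libraries, on 6 to 41 inferred fragments a library. Omd was at 0.365, 0.492 and 0.829 FPKM in deleted libraries, against 0.657, 0.26, 1.07 and 0.677 FPKM in wildtype libraries, on 6 to 43 inferred fragments. The groups overlapped for both, and the differences were 0.16 (SE 0.16) for Kera and -0.08 (SE 0.20) for Omd.

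All class I members overlapped between the genotypes, and Dcn and Bgn were the most abundant of the family. Dcn, decorin, which binds collagen and TGF-beta, was at 347, 606 and 504 FPKM in deleted libraries, against 349, 260, 455 and 296 FPKM in wildtype libraries. Its mean was 486 ± 130 FPKM in deleted and 340 ± 84.9 FPKM in wildtype libraries, and the difference was 0.51 (SE 0.28), or 0.33 without deleted replicate 2. Deleted replicate 1 lay within the wildtype range. Bgn, biglycan, a close relative of decorin that is prominent in bone, was at 232, 527 and 280 FPKM in deleted libraries, against 248, 317, 423 and 205 FPKM in wildtype libraries. Its difference was 0.18 (SE 0.40) with all libraries and -0.17 without deleted replicate 2, so its sign rested on that library. Aspn, asporin, which carries a stretch of aspartate in place of the usual sugar chain, was at 12.3, 11.8 and 22.3 FPKM in deleted libraries, against 27.7, 11.5, 9.62 and 13.8 FPKM in wildtype libraries. Its difference of 0.04 (SE 0.44) was made of -0.54 within BI and 0.89 within BM.

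In class III, Ogn, osteoglycin, was at 31.8, 41.9 and 51.1 FPKM in deleted libraries, against 39.2, 19.7, 71.2 and 35.4 FPKM in wildtype libraries. The deleted libraries lay inside the wildtype range, and the difference was 0.12 (SE 0.47). It was -0.04 without deleted replicate 3 and -0.18 without wildtype replicate 2. Epyc, epiphycan, a component of growth plate cartilage, was at 0.573, 0.133 and 2.26 FPKM in deleted libraries, against 1.02, 0.885, 1.16 and 0.841 FPKM in wildtype libraries. Here the deleted libraries held both the lowest and the highest value, and the difference was -0.13 (SE 0.38), made of -0.55 within BI and 0.71 within BM.

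**Figure D1:**
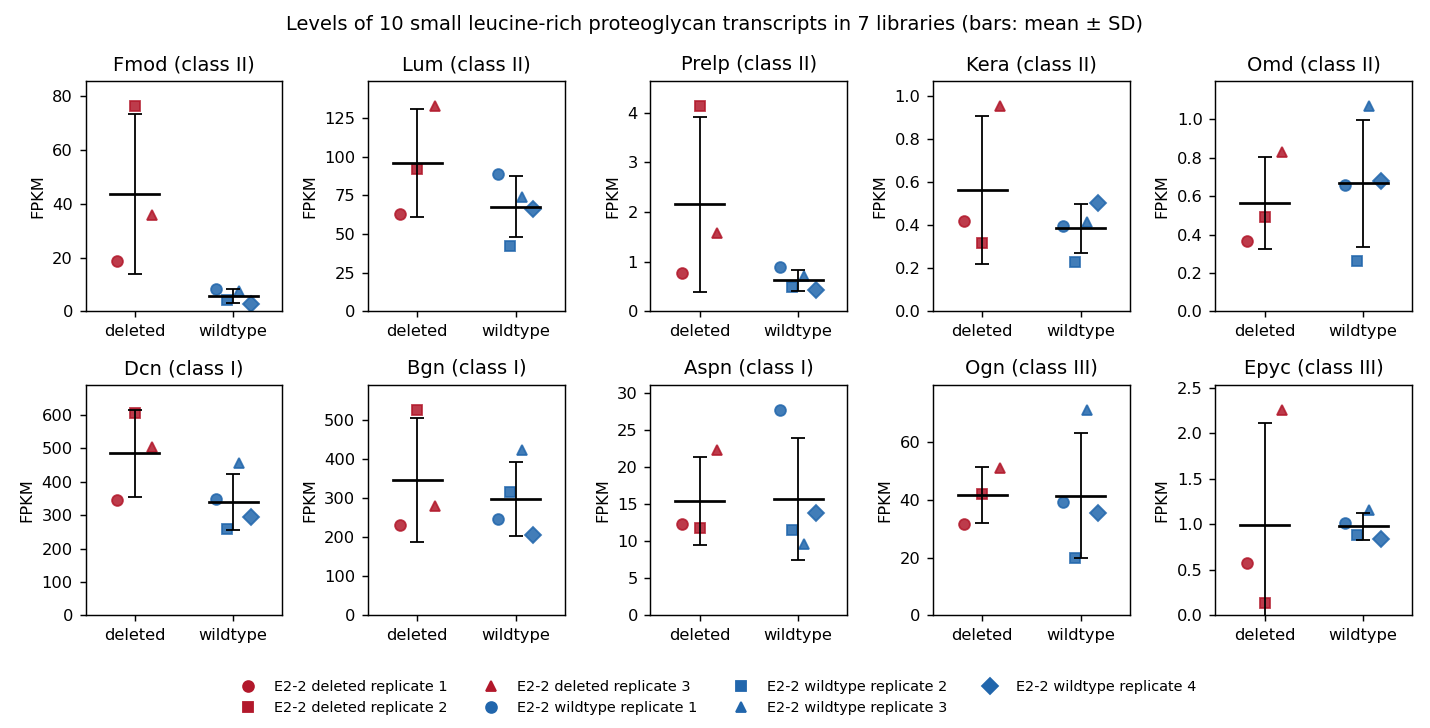
Level of each family member in FPKM (vertical axes from 0, a scale per gene) in the 3 E2-2 deleted and 4 E2-2 wildtype libraries; points are libraries, the thick line is the mean and the bar ± 1 SD. The deleted libraries of Fmod, at 18.6 to 76.3 FPKM, all lie above the wildtype libraries, at 2.75 to 8.34 FPKM, while the groups overlap for the other 9 members.

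Of the 10 members, 7 had a mean of at least 1 FPKM and entered the test across genes, and Kera, Omd and Epyc did not. In that test (limma with Benjamini-Hochberg adjustment over 13464 genes, threshold 0.05), 0 members passed, beside 0 of all genes, or 0%. The smallest adjusted p of any gene was 0.732, and 605 genes had an unadjusted p under 0.05, of which 443 were higher and 162 lower in deleted libraries. Of the 7 members tested, 1, Fmod, had every deleted library above every wildtype library, beside 2.84% of all genes tested. None had every deleted library below every wildtype library, beside 2.05% of all genes. Without deleted replicate 2 the member counts were the same, 1 above and 0 below, beside 4.24% and 2.58% of all genes. The difference was positive for 8 of the 10 members and for all 7 tested, beside 39.3% of all genes tested. Its median over the 7 was 0.48, or 0.33 without deleted replicate 2, beside -0.05 and 0.01 over all genes tested. Since the family was picked with this contrast known, nothing is read from these counts.

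**Figure D2:**
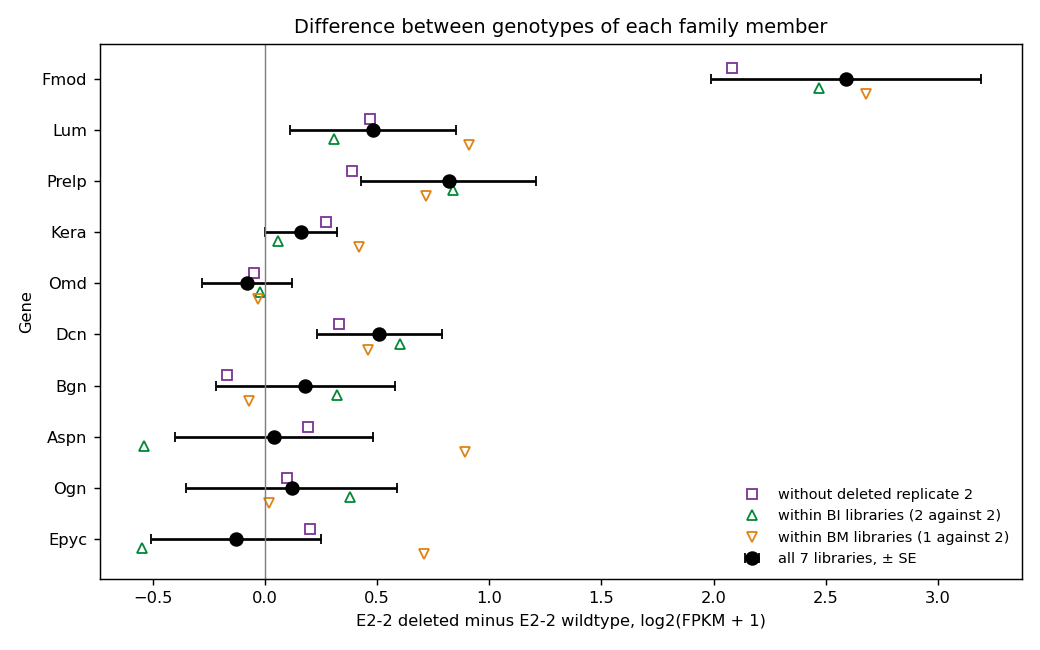
Difference of each member between the genotypes (horizontal axis, E2-2 deleted minus E2-2 wildtype, log2(FPKM + 1)) over all 7 libraries (black, ± SE), without deleted replicate 2 (squares) and within each name prefix (triangles). All 4 values of Fmod lie between 2.08 and 2.68, whereas those of Bgn, Aspn and Epyc fall on both sides of 0.

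The order of mean levels over the 7 libraries ran from Dcn at 402 FPKM through Bgn at 319, Lum at 79.9, Ogn at 41.5, Fmod at 21.9 and Aspn at 15.6 FPKM to Prelp at 1.28, Epyc at 0.981, Omd at 0.621 and Kera at 0.464 FPKM. Bgn was above Lum, Lum above Ogn and Aspn above Prelp in 7 of 7 libraries. Dcn was above Bgn, Ogn above Fmod and Epyc above Omd in 6 of 7, and Omd above Kera in 5 of 7. Fmod was above Aspn in 3 of 7 libraries, and Prelp above Epyc in 2 of 7, so these neighbours did not keep one order. The place of Fmod depended on the library, since in deleted replicate 2 it was at 76.3 FPKM beside 41.9 FPKM of Ogn.

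The sum of the 10 members was 707, 1360 and 1031 FPKM in deleted libraries, against 765, 657, 1044 and 622 FPKM in wildtype libraries. The sums overlapped, and Dcn and Bgn made up most of each. Fmod contributed 2.63%, 5.61% and 3.45% of the sum in deleted libraries, against 1.09%, 0.653%, 0.734% and 0.442% in wildtype libraries, with no overlap. Among the class II members alone, its share was 22.4%, 44% and 20.7% in deleted libraries, against 8.42%, 9%, 9.13% and 3.9% in wildtype libraries. Fmod and Lum compete for the same sites on collagen, and the ratio of their levels was 0.295, 0.829 and 0.268 in deleted libraries, against 0.0939, 0.101, 0.103 and 0.0416 in wildtype libraries. A ratio shows that the members of a pair did not change alike, and it rests here on the same Fmod values as above. The ratio of Dcn to Bgn, 1.48 ± 0.326 in deleted and 1.19 ± 0.295 in wildtype libraries, overlapped.

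**Figure D3:**
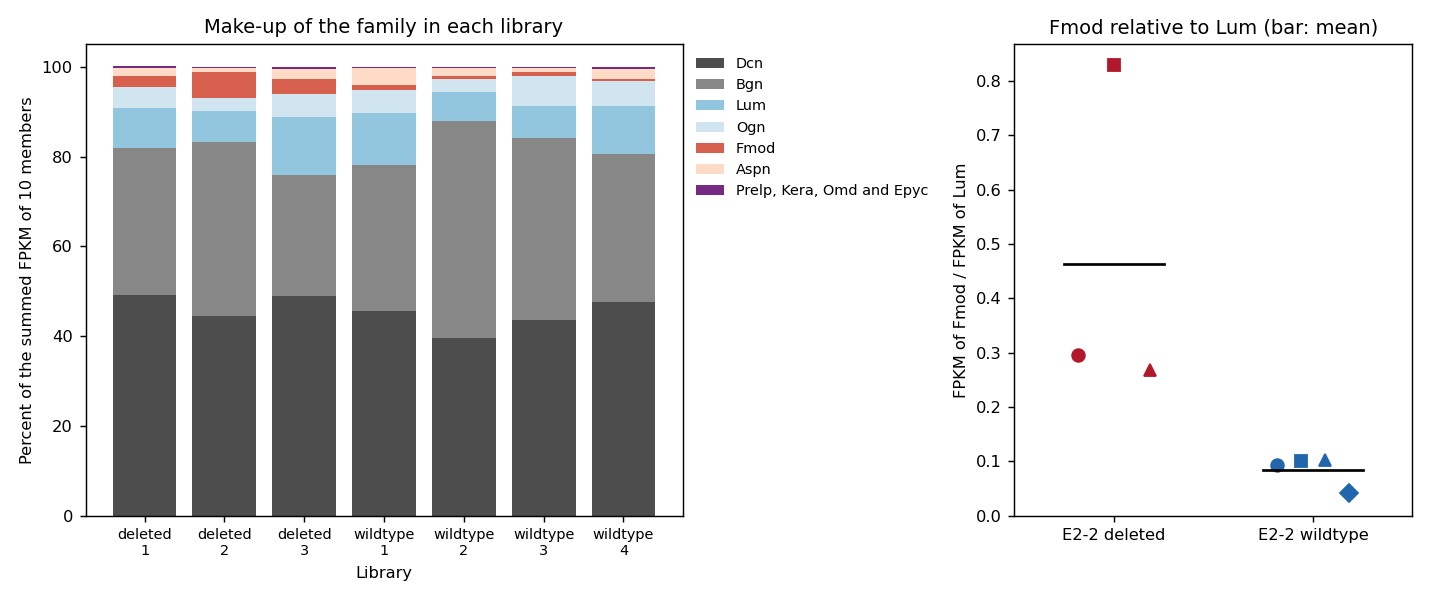
Left, the percent of the summed FPKM of the 10 members that each contributed in every library (stacked bars, deleted libraries first); right, the ratio of Fmod to Lum per library with the group mean. Dcn and Bgn fill most of each bar, and the Fmod segment spans 2.63% to 5.61% in deleted and 0.442% to 1.09% in wildtype libraries.

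Col1a1 encodes the main chain of fibril collagen, and only the ratio of Fmod to it separated the genotypes among the 4 members compared, Fmod, Dcn, Bgn and Lum. The ratio of Fmod to Col1a1 was 0.034, 0.0759 and 0.0571 in deleted libraries, against 0.0173, 0.00858, 0.00792 and 0.00607 in wildtype libraries. It rests on the same Fmod values, on which the family was selected, so it is no separate result. Dcn to Col1a1 was 0.682 ± 0.111 in deleted and 0.593 ± 0.118 in wildtype libraries, Bgn to Col1a1 was 0.466 ± 0.0519 in deleted and 0.51 ± 0.0896 in wildtype libraries, Lum to Col1a1 was 0.14 ± 0.0643 in deleted and 0.123 ± 0.0515 in wildtype libraries, and all 3 overlapped. Col1a1 itself was at 547, 1006 and 623 FPKM in deleted libraries, against 481, 499, 968 and 452 FPKM in wildtype libraries.

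By the coordinates of the deposited tables, for which no build is named, 9 of the 10 members sit in 3 clusters. Prelp (chromosome 1, 135806882 to 135817978) and Fmod (135934092 to 135944854) span 138 kb together, next to Optc, the vitreous SLRP opticin. Optc was at 0.216, 0.651 and 0.498 FPKM in deleted libraries, against 0.201, 0.159, 0.299 and 0.259 FPKM in wildtype libraries, and was below the level filter. Btg2, the first gene beyond Fmod on the other side, was at 26.7 ± 2.76 FPKM in deleted and 28.9 ± 5.31 FPKM in wildtype libraries. The groups of both neighbours overlapped. Dcn (chromosome 10, 96942134 to 96980796), Lum (97028135 to 97035337), Kera (97069839 to 97076322) and Epyc (97106702 to 97144534) span 202 kb, and their levels in the same libraries ranged from 260 FPKM or more for Dcn to 2.26 FPKM or less for Epyc. The entries beside or between them, Mir3966, 4930473O22Rik and 4921510H08Rik, were listed at 0 in every library, and Gm10754, which overlaps the end of Epyc, in all but deleted replicate 2, with 0.213 FPKM. Aspn (chromosome 13, 49639812 to 49662931), Omd (49678116 to 49687978) and Ogn (49703440 to 49719869) lie within 80.1 kb. All 3 are inside the span of Cenpp, a kinetochore gene, from 49559428 to 49748100. Cenpp was at 13.3 ± 4.51 FPKM in deleted and 16 ± 5.29 FPKM in wildtype libraries. The sources used here do not say whether strand was used in the counting, so the values of Aspn, Omd and Ogn are uncertain to that extent, above all the low value of Omd. The genes flanking that cluster, Ecm2 and Nol8, were at 0.744 ± 0.402 and 10.7 ± 2.11 FPKM in deleted and 0.67 ± 0.149 and 11.1 ± 1.22 FPKM in wildtype libraries. Ecm2, from 49600179 to 49628158, is also inside the span of Cenpp, so its low value is uncertain in the same way. Bgn stands alone on chromosome X, from 70728974 to 70741275. Its neighbour Haus7 was at 20.7 ± 6.63 FPKM in deleted and 26.8 ± 1.2 FPKM in wildtype libraries. Every deleted library of Haus7 was below every wildtype library, beside 2.05% of all genes tested. The difference of Haus7 was -0.41, and -0.12 without deleted replicate 2. Atp2b3 on the other side was under 1 FPKM.

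The members did not vary together as one block. Over the 7 libraries, Pearson's r of log2(FPKM + 1) was 0.91 between Fmod and Prelp (Spearman's rho 0.96), and still 0.92 for their deviations from the genotype means and 0.91 without deleted replicate 2. It was 0.86 between Fmod and Dcn, 0.85 between Prelp and Dcn, 0.78 between Lum and Dcn, and 0.72 between Dcn and Ogn. Aspn had an r of 0.58 to Lum, but of 0.09 to Fmod, 0.04 to Prelp, 0.02 to Dcn, 0.06 to Ogn and -0.46 to Bgn. Without deleted replicate 2 its r was 0.68 to Lum and 0.62 to Prelp, and -0.42 to 0.38 to the others. Bgn and Fmod had an r of 0.53, of 0.8 for their deviations from the genotype means, and of 0.05 without deleted replicate 2. Libraries of 1 group share a genotype, and the libraries differ in depth, so these are descriptions of 7 points.

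Outside the family, the genes whose levels followed Fmod most closely were S100a4, a calcium-binding protein of motile mesenchymal cells, the secreted protease Htra3, the relaxin receptor gene Rxfp1, Syngr1, the enamel protease gene Klk4, Nploc4, the mineralization phosphatase gene Phospho1 and Adamts20 (r 0.97 to 0.99 over 7 libraries, and 0.96 to 1 without deleted replicate 2). All 8 had every deleted library above every wildtype library, beside 2.84% of all genes tested. They were picked for following Fmod, which is itself separated, so nothing is read from this count. The sizes of their differences varied widely. S100a4 was at 43.7, 148 and 92.8 FPKM in deleted libraries, against 22.1, 15.1, 28.3 and 11.4 FPKM in wildtype libraries. Phospho1 was at 2.12, 11.4 and 5.18 FPKM in deleted libraries, against 1.82, 0.612, 0.98 and 0.419 FPKM in wildtype libraries. Nploc4 followed the same order of libraries with a difference of 0.06. The genes closest to Dcn were Ntrk2, Lpar1, Capg, Pf4, Alox5ap, Cd200r4, Serpinf1 and Cpz (r 0.97 to 0.99). None of them was separated between the genotypes, and neither was Dcn, by which they were picked. Serpinf1, a secreted inhibitor of vessel growth, was at 134 ± 38.9 FPKM in deleted and 94.5 ± 21.9 FPKM in wildtype libraries.

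Other genes of the family were low or alike in both genotypes. Tsku, tsukushi, a secreted modulator of BMP and Wnt signalling, was at 11.5, 11.1 and 12.1 FPKM in deleted libraries, against 13.3, 11.3, 12.4 and 12.6 FPKM in wildtype libraries, with a pooled SD of 0.08 on the log2 scale, against 0.21 to 0.79 for the members. Podn, podocan, was at 2.15 ± 0.207 FPKM in deleted and 2.01 ± 0.72 FPKM in wildtype libraries. The other 6, Ecm2, Optc, Chad, Chadl, Nyx and Podnl1, were below the level filter. Among them, Podnl1 was at 0.294, 0.178 and 0.109 FPKM in deleted libraries, against 0.0286, 0.0359, 0.0406 and 0.0234 FPKM in wildtype libraries. These groups did not overlap, beside 2.84% of all genes tested with every deleted library above. The mean of Podnl1 over the 7 libraries, 0.101 FPKM, was below the 0.464 FPKM of Kera, which itself rests on few fragments.

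The genes that SLRPs work with were counted in 6 lists. In the limma test 0 of their genes passed the threshold in either direction, beside 0% of all genes. Over all genes tested, every deleted library was above every wildtype library in 2.84% and below in 2.05%. Of 18 fibrillar and fibril-associated collagen genes tested, 0 were separated between genotypes in either direction, and the median difference was 0.23, or 0.05 without deleted replicate 2. Of 24 genes of collagen assembly and cross-linking, 0 were separated, and the median was 0.08 with all libraries and -0.06 without deleted replicate 2. Sparc, a collagen chaperone of the matrix, was at 1114 ± 423 FPKM in deleted and 898 ± 162 FPKM in wildtype libraries. P4ha3, a collagen prolyl hydroxylase, was at 9.44, 27.2 and 10.6 FPKM in deleted libraries, against 7.92, 9.83, 9.72 and 6.73 FPKM in wildtype libraries. Deleted replicate 2 held the highest level of both.

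Of the enzymes that build the sugar chains, few were separated, beside 2.84% above and 2.05% below over all genes tested. Of 21 genes of chondroitin and dermatan sulfate synthesis tested, 1 was above in every deleted library, the chondroitin sulfotransferase Chst11, at 14.2, 24.1 and 15.5 FPKM in deleted libraries, against 12.6, 10.7, 9.96 and 11.7 FPKM in wildtype libraries. The median difference of the list was -0.02. Of 14 genes of keratan sulfate synthesis and tyrosine sulfation, the modifications that Fmod and Lum carry, 0 were above and 1 below, and the median was 0.03. The gene below was St3gal3, a sialyltransferase, at 11.5 ± 0.208 FPKM in deleted and 13 ± 0.992 FPKM in wildtype libraries. Papss2, which makes the sulfate donor, was at 8.71, 34.9 and 14 FPKM in deleted libraries, against 8.13, 10.6, 11.2 and 6.62 FPKM in wildtype libraries. Its groups overlapped.

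Of 11 proteases that process or degrade SLRPs, 0 were above in every deleted library, beside 2.84% of all genes tested. Below in every deleted library was 1, beside 2.05% of all genes. This was Adamts4, an aggrecanase that also cuts SLRPs, at 7.01, 5.57 and 6.66 FPKM in deleted libraries, against 8.38, 9.87, 7.68 and 7.94 FPKM in wildtype libraries. Htra1, a serine protease that cleaves decorin and fibromodulin, was at 15.5, 107 and 30.3 FPKM in deleted libraries, against 10.5, 15.3, 16.8 and 7.69 FPKM in wildtype libraries. Its mean in deleted libraries was 51 ± 49.2 FPKM with deleted replicate 2 and 22.9 FPKM without it. Of 28 growth factors, receptors and other partners that SLRPs bind, 1 was above and 0 below, and the median difference was 0.12. Without deleted replicate 2 the innate immune receptor Tlr2, which biglycan binds, was above as well, beside 4.24% of all genes. Egfr, a receptor that decorin binds and the gene above with all libraries, was at 14.9, 37 and 18.6 FPKM in deleted libraries, against 11.8, 14.3, 14.1 and 12.7 FPKM in wildtype libraries.

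Lists of the cell types in which SLRPs are known did not all go the same way. In the limma test 0 of their genes passed the threshold, beside 0% of all genes. Over all genes tested, 2.84% were above in every deleted library and 2.05% below, or 4.24% and 2.58% without deleted replicate 2. Of 14 tendon and fibrous tissue genes tested, 0 were separated, and the median difference was -0.17. Scx, a tendon transcription factor, was at 11.7, 2.29 and 6.54 FPKM in deleted libraries, against 8.38, 7.16, 19.1 and 17.9 FPKM in wildtype libraries. Of 10 osteoblast genes, 1 was above in every deleted library, the osteocalcin gene Bglap2, whose reads may be shared with its near-identical copies. The median was 0.94, or 0.68 without deleted replicate 2. Their summed level overlapped, at 452 to 811 FPKM in deleted and 411 to 707 FPKM in wildtype libraries, and Spp1 made up most of it. Sp7, an osteoblast transcription factor, was at 4.85, 31.2 and 10.8 FPKM in deleted libraries, against 5.06, 4.87, 1.5 and 2.83 FPKM in wildtype libraries. Of 5 cartilage genes, 1 was above, Hapln1, a link protein, at 4.77 ± 0.655 FPKM in deleted and 2.49 ± 0.554 FPKM in wildtype libraries. The median of that list was -0.22. Of 8 smooth muscle genes, 0 were separated with all 7 libraries and 1, Smtn, was below without deleted replicate 2, and their summed level was 742 to 2260 FPKM in deleted and 837 to 2209 FPKM in wildtype libraries. Of 10 renal stroma genes, 0 were separated with all libraries and 1, Nr2f1, was above without deleted replicate 2, and the sum was 417 to 543 FPKM in deleted and 496 to 634 FPKM in wildtype libraries. Of 10 nephron progenitor genes 0 were separated, with a sum of 103 to 374 FPKM in deleted and 237 to 430 FPKM in wildtype libraries. Of 10 ureteric bud genes 0 were separated, at 179 to 305 FPKM in deleted and 92.6 to 334 FPKM in wildtype libraries. Of 8 macrophage genes 0 were separated, at 133 to 268 FPKM in deleted and 108 to 216 FPKM in wildtype libraries. Of 8 endothelial genes 1 was above, Tek, and the sum was 286 to 421 FPKM in deleted and 206 to 466 FPKM in wildtype libraries. Median differences were -0.03 for smooth muscle, -0.08 for renal stroma and -0.49 for nephron progenitor genes. They were 0.20 for ureteric bud, 0.29 for macrophage and 0.16 for endothelial genes, beside -0.05 over all genes tested. Without deleted replicate 2 these medians were, in the same order, -0.39, -0.08, -0.08, 0.32, 0.21 and 0.24.

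Summed markers of tooth matrix, pigment cells and Wnt feedback were, like Fmod, higher in all deleted than in all wildtype libraries. The lists were chosen with earlier results of these data known, so their counts are a description. Of 4 enamel and dentin genes tested, 2, Ambn and Klk4, were above in every deleted library, beside 2.84% of all genes tested. The summed level of the 9 genes of that list was 27.6, 41.8 and 46.9 FPKM in deleted libraries, against 17.7, 8.35, 3.3 and 1.19 FPKM in wildtype libraries, while the enamel genes Amtn and Odam were listed at 0 in every library. Of 8 melanocyte genes tested, 6 were above, and the sum was 45.6, 95.5 and 126 FPKM in deleted libraries, against 34.9, 19.9, 10.2 and 17.1 FPKM in wildtype libraries. Of 12 Wnt/beta-catenin feedback genes, 10 were above, and the sum was 542, 1980 and 826 FPKM in deleted libraries, against 408, 470, 300 and 284 FPKM in wildtype libraries. The Wnt inhibitor Wif1 was at 127, 611 and 258 FPKM in deleted libraries, against 103, 78.8, 37.9 and 27.4 FPKM in wildtype libraries. Fmod and the Wnt feedback sum were both highest in deleted replicate 2. So were Prelp, Dcn, Bgn and the osteoblast, collagen and smooth muscle sums, so this is not particular to Fmod and Wnt feedback. The melanocyte and enamel sums were highest in deleted replicate 3. Single genes of those sums differed in this. Among the melanocyte and enamel genes of highest level or largest difference, Ambn, Klk4 and Trpm1 were highest in deleted replicate 2. Slc24a5, Pmel, Dct, Mlana and Dspp were highest in deleted replicate 3. The part of these cell types in the level of Fmod was not tested.

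**Figure D4:**
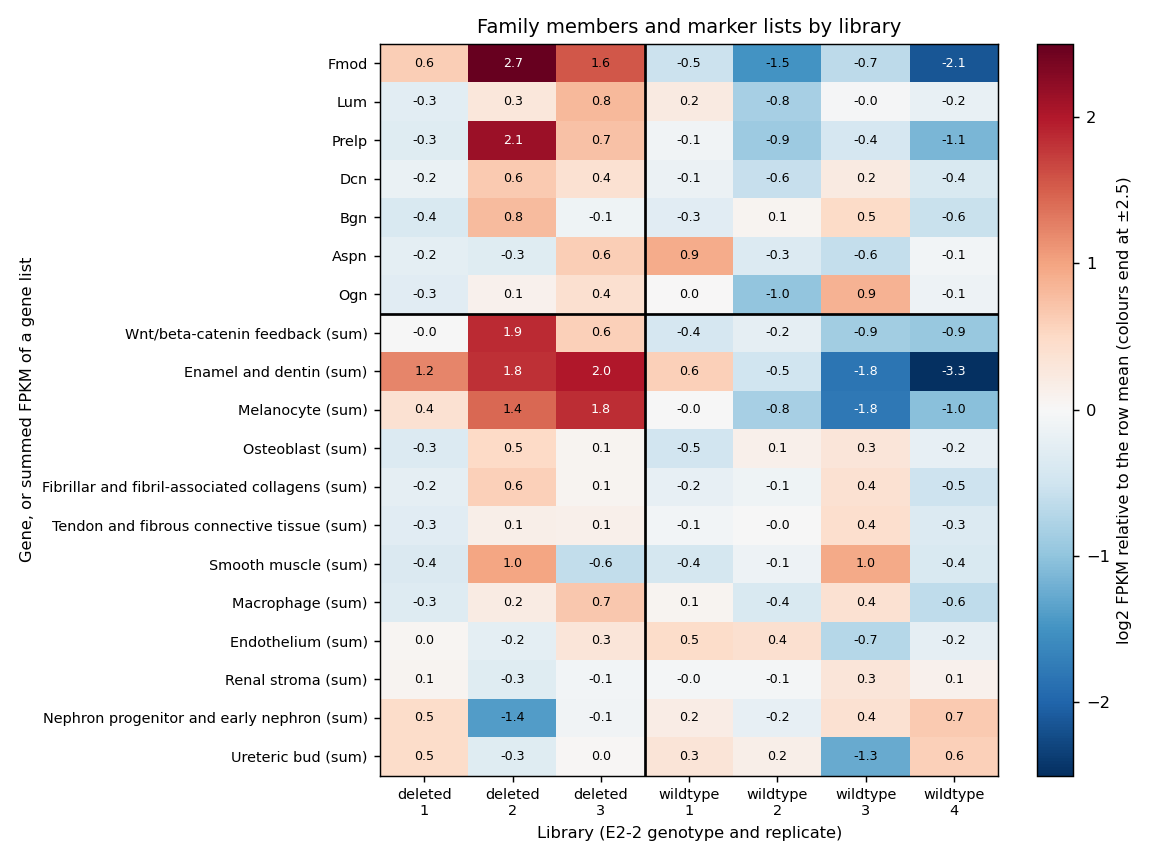
Level of the 7 members tested, and the summed FPKM of gene lists, in each library (columns, deleted libraries first) as log2 FPKM relative to the row mean; numbers in the cells are those values and colours end at ± 2.5. Fmod and the Wnt feedback, enamel and melanocyte sums are higher in the 3 deleted than in the 4 wildtype libraries. Lum, Prelp, Dcn, Bgn, Aspn and Ogn show no such border.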

How the data were processed

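Poly-A RNA of 7 cultured fetal kidneys (3 E2-2 deleted, 4 E2-2 wildtype) was sequenced after a TruSeq RNA library preparation, per the labels' protocols. For each library the authors deposited the FPKM of every gene with its interval and an estimate status, per the file headers. The submitters' processing notes list Cufflinks 2.0.2, TopHat2 2.0.4 and CASAVA 1.8.2 but not what each did. Genome build, gene annotation and use of strand: not given in the sources used here. FPKM divides by length and library total, so depth affects the precision of low genes more than their level.

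Entries of 1 symbol were summed (each member had 1 entry), and 25 symbols that 1 table held as dates were taken from the other tables. The tables hold no read counts. Fragments were inferred from the width of the deposited interval: among genes with 1 start site and under 300 fragments, 79.5% to 80.4% of them came out whole (within 0.05), where 10% would by chance. Depth inferred this way was 14.6 to 26.6 mega-fragments per library.

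Genes without a failed estimate and with a mean of at least 1 FPKM (13464) entered a comparison by limma 3.58.1 under R 4.3.3 on log2(FPKM + 1), with a mean-variance trend, 2-sided, with Benjamini-Hochberg adjustment and a threshold of 0.05. A pseudocount of 1 FPKM understates differences of low genes. The procedure was tested on simulated data with the same spread for every gene. In the deposited data the spread differed between genes, so that run does not show how many differences are missed here. Tables and figures were made with Python 3.11.15.

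The members and the gene lists were chosen with earlier results of these data known. The genes named are the members, 8 other family genes, from each list up to 3 tested genes of highest level and up to 3 of largest difference, the 8 tested genes most correlated with Fmod and the 8 with Dcn (predicted genes left out), and the nearest gene on either side of each member. St3gal3, Bglap2, Tlr2, Smtn and Nr2f1 were named after their values were seen, as genes behind a small count of separated genes in their list. Promoters came from RefSeq (GRCm38.p6), where 8 of the 10 members matched by symbol. Alternatives were another pseudocount, other filters, scaling by median of ratios or quantiles, a weight per library, no trend, each library left out and values within each name prefix.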

Additional observations from a re-analysis of the deposited data

How the results depend on the processing

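Differences of the 10 members were recomputed under 16 alternatives. Of 160 values, 153 moved by less than the pooled SD. A difference of group means uses neither the level filter nor the trend. The values with other filters or no trend were therefore fixed in advance and say nothing about stability. Fmod, Dcn, Lum and Prelp kept their sign in every alternative run, and the other 6 members changed sign in at least 1. Fmod ranged from 2.08 without deleted replicate 2 to 3.07 without deleted replicate 1 on leaving out a library. The values that moved by more than the pooled SD were 1.37 for Prelp with a pseudocount of 0.1 FPKM, 0.39 for Kera and 0.48 for Epyc with a weight per library, -0.54 for Aspn within BI, and 0.89 for Aspn, 0.42 for Kera and 0.71 for Epyc within BM.

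Between 5 (without deleted replicate 3) and 9 (without deleted replicate 1) of the 10 members had a positive difference on leaving out a library. The limma test called 0 genes, and 1 with a weight per library (9130015A21Rik, adjusted p 0.0448) and 1 with no filter on low values (Ndufs5, adjusted p 0.000827), both named after their values were seen. The genes at an unadjusted p under 0.05 numbered 605, and 1144 with a weight per library, 1001 with no filter, 394 with a mean of at least 5 FPKM, and 250 (without deleted replicate 2) to 1473 (without deleted replicate 1) on leaving out a library, with 336 without wildtype replicate 4; the cause was not tested. Results without deleted replicate 2 for lists, separated genes and correlations were added after seeing the data. No paired analysis was possible because the labels carry no replicate numbers: those used here follow the order of deposit within each group and tie no deleted library to a wildtype one. Kera, Omd, Epyc and Prelp rest on few fragments.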
